A study of Mus musculus with 8 samples.

Results

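The unfolded protein response and the integrated stress response were followed through 34 genes in chondrocytes, the cells that form cartilage, from the ribs of mouse fetuses. The genes were chosen by symbol for their place in these pathways, with earlier results of these data known. Their shares set beside those of all genes are therefore descriptive. Of 18193 genes with at least 1 probe set that names a single gene, 34 are these, and all 34 were among the 10989 genes that passed the filter on mean signal (at least 110). Sesn2 was the member closest to that filter, with a mean signal of 112. Where a gene had several such probe sets, the brightest on average over the 8 arrays stood for it. By role they form 9 genes of the ATF4 arm, 7 sensors and transcription factors, 14 chaperones and folding factors of the endoplasmic reticulum (ER), and 4 genes of ER-associated degradation.

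The samples were primary rib chondrocytes of FVB mice at E18.5, shortly before birth, released from rib cages with collagenase and trypsin. Fetuses came from 4 litters, called litters 1 to 4 here after the replicate numbers in the labels. Within each litter the fetuses were split into wild type controls and Hoxc8 transgenics, which gave 1 array per genotype and litter, 4 per genotype in all. The promoter that drives the Hoxc8 transgene, the number of fetuses in a sample and their sexes are not given in the sources used here. The comparisons asked whether the stress genes differed between the genotypes within litters, and how they differed from litter to litter. With 1 array per genotype in a litter, the only replicate of a litter is the array of the other genotype, and an effect of genotype that differs between litters cannot be tested.

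When proteins misfold in the ER, the sensors PERK, IRE1 and ATF6 set off the unfolded protein response. PERK is also a kinase of the integrated stress response: it phosphorylates eIF2, general translation falls, and the transcription factor ATF4 is made and switches on Ddit3 (CHOP), Chac1, Trib3 and genes of amino acid supply. ATF6 and spliced XBP1 raise chaperones and degradation factors. In cartilage, where collagen and proteoglycan secretion is heavy, the factor Creb3l2 (BBF2H7) helps fit the secretory pathway to its load. Creb3l1 (OASIS) is a related factor.

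Promoter sequences were searched for elements known from the ATF4 arm and from ER chaperones. RefSeq windows of the build GRCm38.p6, from 250 bases before to 50 after the annotated start, were held for 29 of the 34 genes. Both strands were read for the C/EBP-ATF response element bound by ATF4 (CARE, TGATGNAA), the ER stress element (ERSE, CCAAT and CCACG with 9 bases of any kind between them), the second ER stress element (ERSE-II, ATTGG and CCACG with 1 base of any kind between them) and the cyclic AMP response element (CRE, TGACGTCA). No matches to different motifs overlapped in these 29 windows. CARE matches lay in 3 of 8 ATF4 arm windows (Chac1, Trib3 and Asns) and in Herpud1, against 3.97% of all 32851 windows. ERSE matches lay in 7 of 12 chaperone windows (Hspa5, Hsp90b1, Calr, Canx, Pdia6, Dnajc3 and Creld2) and in Syvn1, against 0.119% of all windows. ERSE-II matches were found in Dnajb11 and Herpud1 (0.0365% of all windows), and Ppp1r15a held a CRE (1.79% of all windows). A match describes letters in a window and not a bound site. The 250 bases before the start follow for the genes whose litter differences are set against each other below, 5′ to 3′ on the gene's strand, with the matches in capitals. All lie on the plus strand: Chac1 at chr2:119350992-119351241, Herpud1 at chr8:94386179-94386428, Hspa5 at chr2:34771840-34772089 and Pdia6 at chr12:17266339-17266588.
Chac1 (CARE, read on the opposite strand): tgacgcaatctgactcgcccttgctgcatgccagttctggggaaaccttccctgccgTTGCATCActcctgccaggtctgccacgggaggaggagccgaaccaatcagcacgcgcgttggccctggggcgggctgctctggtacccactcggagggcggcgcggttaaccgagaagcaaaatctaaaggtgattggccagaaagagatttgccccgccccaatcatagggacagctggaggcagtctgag
Herpud1 (CARE on the opposite strand, then ERSE-II): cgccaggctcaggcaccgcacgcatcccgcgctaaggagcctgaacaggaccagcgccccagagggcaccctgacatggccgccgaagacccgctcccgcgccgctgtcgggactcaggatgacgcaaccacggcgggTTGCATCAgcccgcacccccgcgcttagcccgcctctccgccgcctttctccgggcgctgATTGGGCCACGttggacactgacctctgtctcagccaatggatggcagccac
Hspa5 (ERSE): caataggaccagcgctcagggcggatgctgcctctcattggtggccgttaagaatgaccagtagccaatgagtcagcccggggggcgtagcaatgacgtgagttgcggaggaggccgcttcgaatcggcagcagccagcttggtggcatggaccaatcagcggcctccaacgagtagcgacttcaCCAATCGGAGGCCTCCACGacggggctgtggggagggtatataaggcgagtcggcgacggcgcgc
Pdia6 (ERSE): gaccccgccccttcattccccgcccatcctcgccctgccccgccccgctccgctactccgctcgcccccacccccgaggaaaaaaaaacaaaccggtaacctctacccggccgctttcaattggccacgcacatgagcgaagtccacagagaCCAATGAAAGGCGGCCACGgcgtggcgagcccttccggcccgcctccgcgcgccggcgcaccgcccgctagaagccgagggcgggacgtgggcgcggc

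Windows of 30 bases around a match are shown for 5 more genes, to set ATF4 arm elements beside chaperone elements. All 5 are on the minus strand: Trib3 at chr2:152344028-152344057, Asns at chr6:7693214-7693243, Ppp1r15a at chr7:45526262-45526291, Calr at chr8:84847069-84847098 and Canx at chr11:50325794-50325823.
Trib3 (CARE, opposite strand): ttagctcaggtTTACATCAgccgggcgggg
Asns (CARE): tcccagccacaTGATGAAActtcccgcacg
Ppp1r15a (CRE): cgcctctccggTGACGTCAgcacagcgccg
Calr (ERSE, opposite strand): caacgCGTGGTCGACCCTCATTGGcccata
Canx (ERSE): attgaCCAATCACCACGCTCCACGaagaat

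Across the series, array median signals lay between 106 and 121. All 12 chondrocyte markers, Col2a1, Acan and Sox9 among them, passed the filter on mean signal. Hoxc8 signal was 3066 to 4112 in the controls and 3400 to 4235 in the transgenics, which overlap. No source used here says whether the probe set detects the transgene. The array's 5′ to 3′ control ratio for actin, a sign of RNA integrity and labelling, was lowest in litter 4 (0.512 and 0.475, against 0.59 to 0.647 elsewhere), as was that for Gapdh (1.17 and 1.14, against 1.26 to 1.36). In a bulk sample, fewer cells of a type and less RNA per cell cannot be told apart.

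In litters 2 and 4, the signed median difference from the other litters was largest in size in the ATF4 arm, which was not so in litters 1 and 3. With signs dropped, the litter 3 median was 0.27 log2 in the ATF4 arm and 0.26 in sensors and transcription factors. Ddit3, Chac1 and Herpud1 were 2.81, 2.78 and 1.70 times as high in litter 2 as in the other litters, and Chac1, Trib3, Creb3l1, Creb3l2 and Herpud1 were lowest in litter 4. By limma's moderated F-test between the 4 litters, with genotype in the model and Benjamini-Hochberg adjustment over all 22519 probe sets, 13 of 34 genes were called at an adjusted p under 0.05, beside 9.91% of all 10989 genes. The calls fell on 6 of 9 genes of the ATF4 arm, 3 of 7 sensors and transcription factors, 3 of 14 chaperones and 1 of 4 degradation genes. The range of the 4 litter means exceeded the largest genotype difference inside a litter for 26 of 34 genes (76.5%), against 58% of all genes. That held for 7 of 9 ATF4 arm genes, 7 of 7 sensors and transcription factors, 9 of 14 chaperones and 3 of 4 degradation genes. The count of 13 fell to 5 without the control array of litter 2, to 6 without that of litter 3, to 6, 6 and 7 without the transgenic array of litter 2, 3 or 4, and to 4 and 6 without both arrays of litter 2 or of litter 4. When limma's variance prior was not allowed to follow the signal level, no probe set of the whole array passed the F-test (smallest adjusted p = 0.0866), and 15 of the 34 genes had an unadjusted p under 0.05.

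**Figure D1:**
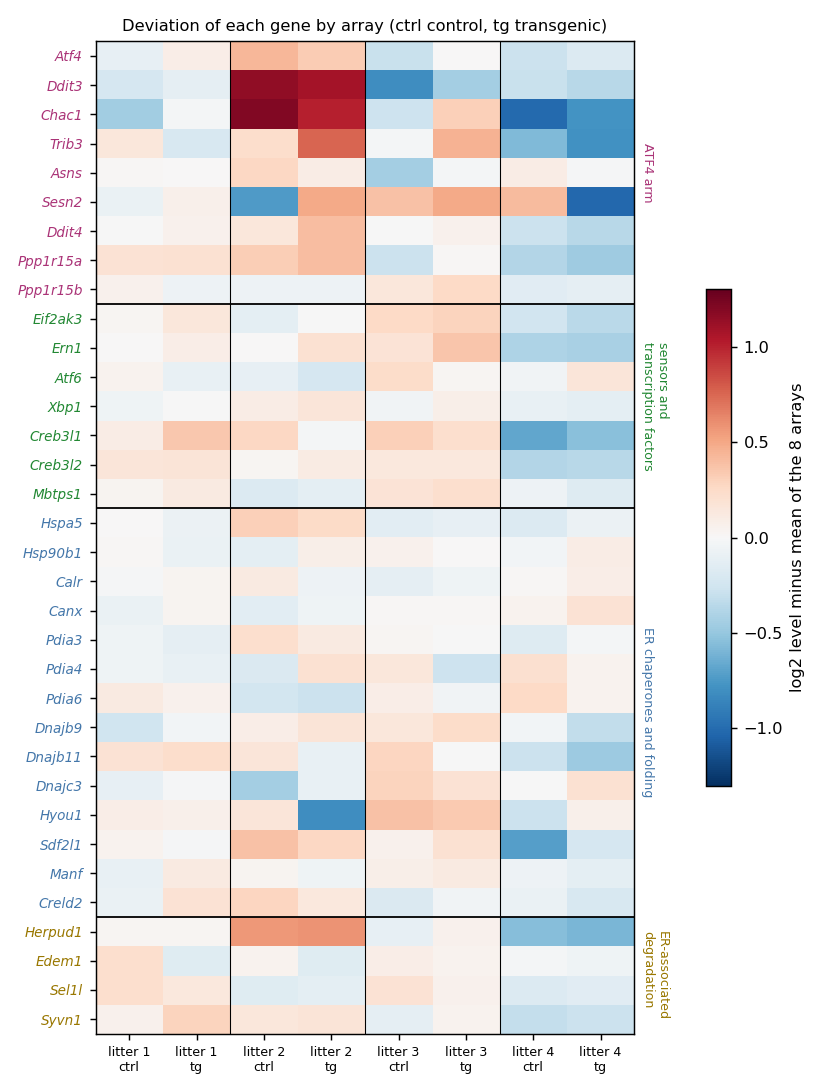
Colours give the log2 level of each of the 34 genes (rows, grouped by role) on each of the 8 arrays (columns, by litter, control then transgenic) minus the gene's mean over the arrays, on a scale from -1.3 to 1.3. Ddit3, Chac1 and Herpud1 stand out as high on both litter 2 arrays, and Chac1, Trib3 and Creb3l1 as low on both litter 4 arrays, while most chaperones stay pale.

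Within the ATF4 arm, Atf4 itself, the transcription factor of the arm, had signals of 15256, 22169, 13446 and 13565 in the controls of litters 1 to 4 and of 17523, 20697, 16517 and 14573 in the transgenics. Both litter 2 arrays were above the other 6. Atf4 was 0.51 log2 higher in litter 2 than in the mean of the other litters (SE 0.08, 1.42-fold, limma adjusted p = 0.00505). Its lower second probe set, at a mean signal of 5685, gave 0.24 (adjusted p = 0.136), and without the control array of litter 2 the difference was 0.36 (adjusted p = 0.154). In litter 4 Atf4 was at -0.30 (adjusted p = 0.0417). That call ended in 8 of 11 omissions (values down to -0.15, adjusted p up to 0.233), all except the transgenic array of litter 2 and all of litter 1 or 3. It also ended with no filter on mean signal (-0.30, 0.121) and with the mean over probe sets (-0.23, 0.056).

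Ddit3 encodes CHOP, a factor that ATF4 induces and that is known for its part in stress-induced death. Its control signals were 2164, 5643, 1430 and 2052, and its transgenic signals 2319, 5346, 1848 and 1957. Litter 2 lay far above all others and both litter 3 arrays were the lowest. The litter 2 difference was 1.49 log2 (SE 0.10, 95% interval 1.27 to 1.71, adjusted p = 2.71e-05), and its second probe set gave 1.18 (adjusted p = 0.00108). Ddit3 was the only member called in litter 3, 0.83 log2 below the others there (fitted value -0.83, adjusted p = 0.00241), beside 1.43% of all genes called lower in that litter. That call was lost without the control array of litter 3 (-0.64, adjusted p = 0.142) and without both litter 2 arrays (-0.38, adjusted p = 0.161). Its litter 4 difference of -0.44 (adjusted p = 0.0217) became 0.07 without both litter 2 arrays (adjusted p = 0.751). It missed the threshold too without the control array of litter 2 (-0.40, 0.0593) or the transgenic array of litter 3 (-0.37, 0.0507) or 4 (-0.34, 0.207).

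Chac1, which breaks down glutathione and is a target of ATF4, carries the CARE shown above. Its signals were 906, 2900, 1032 and 607 in the controls and 1220, 2525, 1546 and 720 in the transgenics, with litter 2 highest and litter 4 lowest without overlap. The litter 2 difference was 1.48 log2 (SE 0.13, 95% interval 1.18 to 1.77, adjusted p = 0.00013), and the litter 4 difference -1.19 (0.439-fold, adjusted p = 0.000668). The litter 2 differences of Chac1, Ddit3 and Herpud1 stayed past the threshold in every alternative and omission run, while those of the other called members did not.

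Trib3, a pseudokinase that curbs ATF4 and CHOP signalling, had signals of 341, 361, 301 and 198 in the controls and of 262, 533 and 428 in the transgenics of litters 1 to 3, and its 2 litter 4 arrays averaged 183. Both litter 4 arrays were below the rest (-0.91 log2, SE 0.20, adjusted p = 0.0173), and the litter 2 value of 0.66 missed the threshold (adjusted p = 0.074). A second, dimmer probe set gave -0.43 in litter 4, which was not called (adjusted p = 0.166), and 0.92 in litter 2, which was (adjusted p = 0.0139). Ppp1r15a (GADD34), which brings a phosphatase to eIF2 and ends the translation block, had control signals of 2408, 2635, 1730 and 1611 and transgenic signals of 2413, 2780, 2129 and 1520. It was higher in litter 2 (0.48, adjusted p = 0.0143) and lower in litter 4 (-0.56, adjusted p = 0.0053), with no overlap on either side. Ddit4 (REDD1), an inhibitor of mTORC1, followed with 0.36 in litter 2 (adjusted p = 0.0342) and -0.43 in litter 4 (adjusted p = 0.0134). In these 3 genes the litter 4 calls ended without the transgenic array of litter 4 (Trib3 -0.69, adjusted p = 0.196; Ddit4 -0.33, 0.162; Ppp1r15a -0.46, 0.0768). Without both litter 2 arrays, Trib3 gave -0.77 (adjusted p = 0.0668) and Ddit4 -0.34 (0.0597), and without the transgenic array of litter 2 Trib3 gave -0.81 (0.0529). The litter 2 call of Ppp1r15a ended without either litter 2 array (0.48 in both cases, adjusted p = 0.196 and 0.143) and without litter 4 (0.33, 0.0629). That of Ddit4 ended in 7 of 11 omissions, with values down to 0.24 and adjusted p up to 0.315. Those were the omissions of the control or transgenic array of litter 2 or 3, the transgenic array of litter 1, and all of litter 3 or 4. It ended as well with no filter (0.36, 0.0622) and with median centring (0.28, 0.094).

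The other 3 members of the arm were not called. Asns, the asparagine synthetase whose promoter also holds a CARE, had signals of 1764 to 2897 and a litter 2 difference of 0.24 (95% interval 0.00 to 0.49, adjusted p = 0.217). Ppp1r15b, the constitutive partner of the eIF2 phosphatase, ranged from 990 to 1322 and was highest on both litter 3 arrays. Sesn2, which restrains mTORC1, ranged from 39.7 to 155 near the floor of the filter, with both extremes among the transgenics.

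In litter 2 as a whole, 7 of 34 genes were called higher (3.09% of all genes were) and Pdia6 alone lower (3% of all genes). Of the 7, 5 belonged to the ATF4 arm (Atf4, Ddit3, Chac1, Ddit4 and Ppp1r15a), and the others were Hspa5 and Herpud1. The total of 8 calls fell to 3 without the control and to 4 without the transgenic array of litter 2. In litter 4, 14 of 34 were called lower (5.87% of all genes) and 0 higher (4.12% of all genes, by limma, with 1 member at an unadjusted p under 0.05). The 14 were 6 of 9 ATF4 arm genes, 4 of 7 sensors and transcription factors, 2 of 14 chaperones and 2 of 4 degradation genes. Their count became 5 without the transgenic and 9 without the control array of litter 4, 9 without either array of litter 3, and 7 without litter 2. With no intensity trend in the variance prior, Ddit3, Chac1 and Herpud1 remained called in litter 2 (adjusted p = 0.0292, 0.0435 and 0.0491), and 0 of the 34 in litter 4, where 14 had an unadjusted p under 0.05. In litter 3, Ddit3 was the 1 call and 0 genes were higher by limma (1.87% of all genes), with 9 at an unadjusted p under 0.05. Litter 1 had no called member by limma, with 7 at an unadjusted p under 0.05 and 0% of all genes called.

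**Figure D2:**
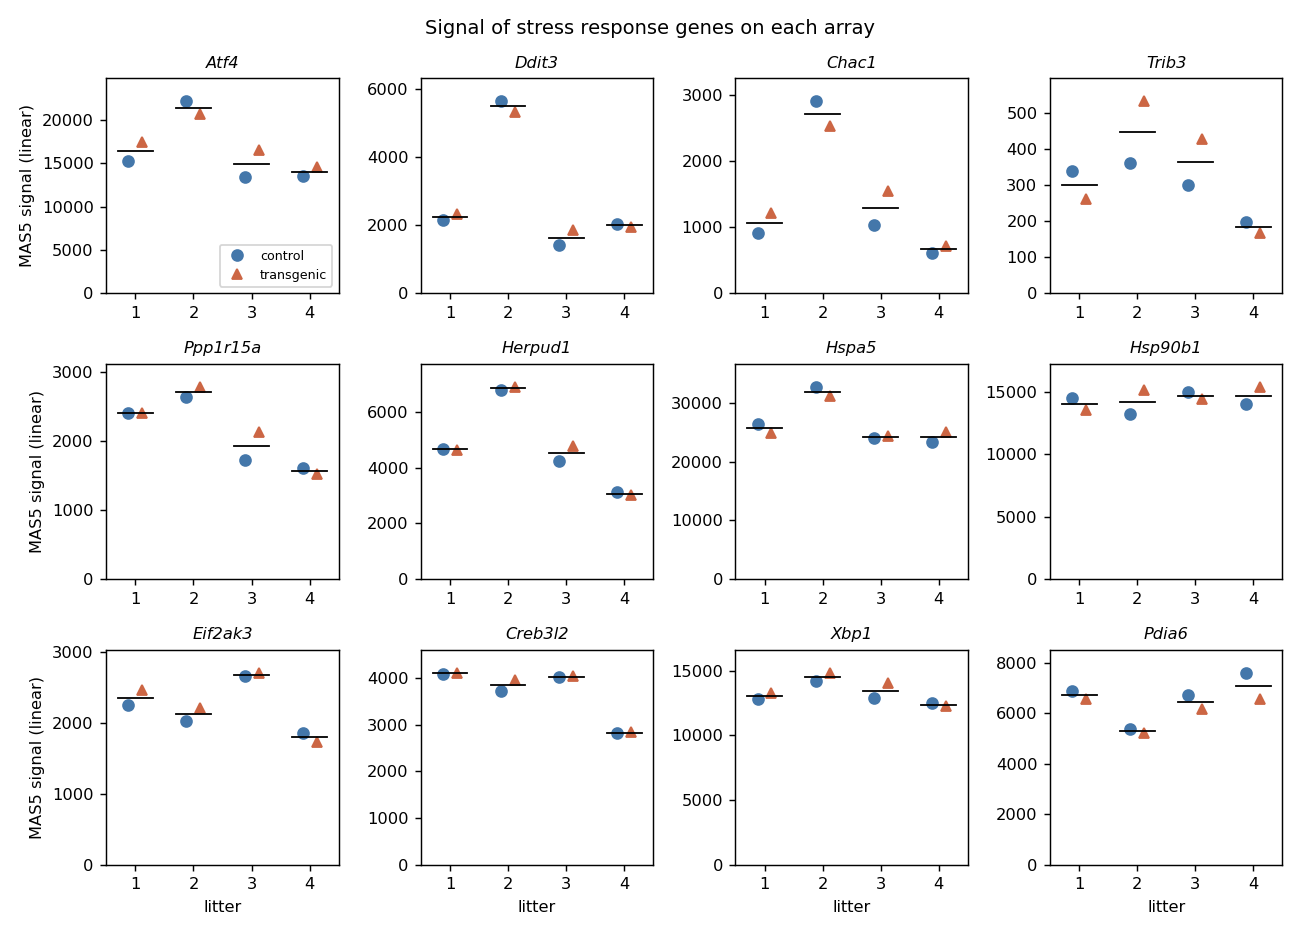
Each panel plots the linear MAS5 signal of 1 gene against litter, with blue circles for controls, orange triangles for transgenics and a bar at the mean of the 2 arrays. Ddit3, Chac1 and Herpud1 peak in litter 2 for both genotypes, Creb3l2 drops in litter 4 only, Hsp90b1 stays level and Pdia6 dips in litter 2.

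Among sensors and transcription factors, all 4 calls against the other litters were in litter 4. Litters 2 and 3 had no call by limma, with 2 of 7 and 5 of 7 at an unadjusted p under 0.05. In litter 3 all 7 values were above 0, with a median of 0.26 log2 (0.00 for all genes). Eif2ak3 (PERK), the ER kinase that phosphorylates eIF2, had control signals of 2248, 2025, 2652 and 1860 and transgenic signals of 2457, 2209, 2699 and 1730. Litter 4 was lowest (-0.40 log2, SE 0.09, adjusted p = 0.0186) and litter 3 highest, where the difference of 0.36 missed the threshold (adjusted p = 0.051). Ern1 (IRE1), the kinase and nuclease that splices Xbp1 mRNA, ranged from 398 to 516 in litters 1 to 3 and was at 296 and 291 in litter 4 (-0.55, adjusted p = 0.0293). Its dimmer second probe set gave 0.02 in litter 4. Creb3l1, the OASIS factor, was at 530, 601, 617 and 301 in the controls and at 633, 483, 577 and 331 in the transgenics, so that litter 4 lay below all other arrays (-0.81, SE 0.14, adjusted p = 0.00612).

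Creb3l2, the BBF2H7 factor that cartilage needs for matrix secretion, had signals of 4092, 3729, 4024 and 2814 in the controls and of 4111, 3956, 4040 and 2849 in the transgenics. The 6 arrays of litters 1 to 3 sat close together, and litter 4 was lower by 0.49 log2 (fitted value -0.49, SE 0.08, adjusted p = 0.00355). A second probe set also gave -0.58 there (adjusted p = 0.00288), and 0.62 in litter 2 (adjusted p = 0.00196), where the main probe set gave 0.09. The Creb3l2 call in litter 4 held in all 11 omissions. That of Creb3l1 ended without the control array of litter 4 (-0.72, adjusted p = 0.0618). The Eif2ak3 call ended in 4 of 11 omissions, namely the transgenic array of litter 4 (-0.30, 0.195) or of litter 2 (-0.38, 0.0503), the control array of litter 3 (-0.39, 0.0532) and all of litter 3 (-0.31, 0.0966). The Ern1 call ended in 9 of 11 (adjusted p up to 0.23), all except the control array of litter 2 and all of litter 1, and also with no filter (-0.55, 0.0609) and with the mean over probe sets (-0.27, 0.304).

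Xbp1, whose spliced form drives degradation and secretory genes, was not called. Its signals lay between 12239 and 14815, with litter 2 above and litter 4 below the other arrays, and none of its 4 probe sets was called between litters (adjusted p = 0.27 for the brightest). A 3′ expression array of this kind does not tell the spliced from the unspliced Xbp1 mRNA. Atf6 ranged from 333 to 466 (F-test adjusted p = 0.584). Mbtps1, the site-1 protease that releases ATF6 and its relatives, was highest on both litter 3 arrays and was not called (litter 4 difference -0.16, adjusted p = 0.256), although a dimmer probe set fell in litter 4 (-0.88, adjusted p = 0.00614).

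The 3 chaperones called between litters did not share a direction in litter 2, where Hspa5 was higher and Pdia6 lower. The F-test calls of all 3 ended with quantile normalization, which left 10 of the 34 members called. They also ended with no filter on mean signal, which left 6. That of Hspa5 ended in 6 of 12 omissions, and those of Pdia6 and Dnajb11 in 10 of 12, beside 8 of 12 for Trib3. Hspa5 (BiP), the main ER chaperone and the classic target of the ERSE, had control signals of 26504, 32721, 23980 and 23354 and transgenic signals of 24948, 31207, 24478 and 25047. Both litter 2 arrays were above all others, by a fitted 0.37 log2 (SE 0.07, 95% interval 0.22 to 0.52, 1.29-fold, adjusted p = 0.0102). The second probe set gave the same 0.37 (adjusted p = 0.0202) and the dimmest -0.19 (adjusted p = 0.322). Without the control or the transgenic array of litter 2 the call ended (0.33 and 0.41, adjusted p = 0.16 and 0.0599). It ended too with the mean over probe sets (0.18, 0.137) and with no filter on mean signal (0.37, 0.0601), and quantile normalization gave 0.22 (0.0378).

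Pdia6, a disulfide isomerase whose promoter also carries the ERSE, went the other way. It was at 6865, 5362, 6729 and 7588 in the controls and at 6562, 5202, 6145 and 6551 in the transgenics, with both litter 2 arrays below the rest (-0.35 log2, SE 0.07, adjusted p = 0.02). That call ended without the control (-0.30, 0.236) or transgenic (-0.39, 0.0985) array of litter 2 and without the control (-0.34, 0.0589) or transgenic (-0.35, 0.0547) array of litter 3. Its second probe set, at a signal of 166, pointed up (0.68, adjusted p = 0.0774), and with the mean over both probe sets the value was 0.17.

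Dnajb11, a co-chaperone of BiP, had control signals of 1254, 1233, 1340 and 905 and transgenic signals of 1293, 1029, 1096 and 790, lowest in litter 4 (-0.50, adjusted p = 0.0149). Sdf2l1, a partner of BiP complexes, was at 232 and 334 in litter 4 and at 389 to 518 elsewhere (-0.62, adjusted p = 0.0293). The Dnajb11 call ended without the control or the transgenic array of litter 4 (-0.51 and -0.48, adjusted p = 0.0764 and 0.106). The Sdf2l1 call ended in 7 of 11 omissions (values down to -0.38, adjusted p up to 0.307), all except the transgenic array of litter 1, 2 or 4 and all of litter 1, and with no filter (-0.62, 0.0662).

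Hsp90b1 (GRP94), Calr and Canx, which fold glycoproteins and other cargo, were not called. Hsp90b1 signals lay between 13204 and 15375, with a litter 2 difference of -0.03 (95% interval -0.20 to 0.14) and a litter 4 difference of 0.04 (-0.13 to 0.21). A second Hsp90b1 probe set, at a mean signal of 9163, gave 0.36 in litter 2 (adjusted p = 0.0533). Calr lay between 12532 and 14669 (F-test adjusted p = 0.672), and Canx between 9478 and 11896, highest on both litter 4 arrays. In litter 2 Canx gave -0.13, and a second probe set -0.27 (adjusted p = 0.0674). The 7 other chaperones and folding factors were Pdia3, Pdia4, Dnajb9, Dnajc3, Hyou1, Manf and Creld2, and none was called. Of these, Pdia3 was highest on both litter 2 arrays (19328 and 17983) with a difference of 0.22 (adjusted p = 0.092), and Dnajc3 (P58IPK, a co-chaperone that also inhibits PERK) had -0.36 (adjusted p = 0.0507).

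In ER-associated degradation, Herpud1 was high in litter 2 and low in litter 4, as Chac1 was. This membrane protein of the degradation complex carries both a CARE and an ERSE-II in the window printed above. Its control signals were 4679, 6816, 4260 and 3120, and its transgenic signals 4658, 6902, 4774 and 3032. Litter 2 was highest and litter 4 lowest, with no overlap on either side. The fitted differences were 0.77 log2 in litter 2 (SE 0.08, 95% interval 0.60 to 0.94, adjusted p = 0.000229) and -0.77 in litter 4 (adjusted p = 0.000383). A second probe set gave 0.89 (adjusted p = 0.000171) and -0.81 (adjusted p = 0.00042).

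Syvn1 (HRD1), the ubiquitin ligase of the complex, was lower in litter 4, at 1158 and 1186 against 1325 to 1761 elsewhere (-0.39, adjusted p = 0.0279). This ended in 8 of 11 omissions (adjusted p up to 0.197), all except the control array of litter 1, the transgenic array of litter 2 and all of litter 3. Sel1l, its adaptor, depended on the probe set. The brightest gave -0.22 in litter 4 (adjusted p = 0.15), whereas its 4 other tested probe sets gave -0.53 to -0.80 and were each called. Edem1, which guides misfolded glycoproteins to degradation, had signals of 1000 to 1302 and a litter 4 difference of -0.05.

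Set side by side, the ATF4 arm and the chaperones differed in the median and range of their signed litter differences. The median difference of litter 2 from the other litters was 0.48 log2 for the 9 ATF4 arm genes (-0.17 to 1.49), 0.09 for sensors and transcription factors, 0.02 for the 14 chaperones (-0.43 to 0.43), 0.07 for degradation genes and -0.03 for all genes tested. In litter 4 the medians were -0.43 for the ATF4 arm (-1.19 to 0.06), -0.40 for sensors and transcription factors, -0.13 for the chaperones (-0.62 to 0.21), -0.30 for degradation genes and 0.02 for all genes. With signs dropped, the litter 2 medians were 0.48 for the ATF4 arm, 0.20 for the chaperones and for degradation genes, and 0.16 for sensors and transcription factors and for all genes. In litter 4 they were 0.43 for the ATF4 arm, 0.40 for sensors and transcription factors, 0.30 for degradation genes, 0.16 for the chaperones and 0.18 for all genes. The difference between the roles was not tested. Both litter 2 arrays were above the other 6 for 10 of the 34 genes (8.83% of all genes), of which 5 were ATF4 arm genes and 3 were chaperones (Hspa5, Pdia3 and Sdf2l1), with Xbp1 and Herpud1. Both litter 4 arrays were below the other 6 for 14 (11.4% of all genes) and above them for Canx alone (13.2% of all genes), while both litter 2 arrays were below the other 6 for Atf6 and Pdia6 (10.8% of all genes). Litter 3 was above all other arrays for Ppp1r15b, Eif2ak3, Mbtps1 and Hyou1 (8.59% of all genes) and below them for Ddit3 and Asns (7.87%), and litter 1 was above them for Creb3l2 (3.26%) and below them for no member (2.18%).

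**Figure D3:**
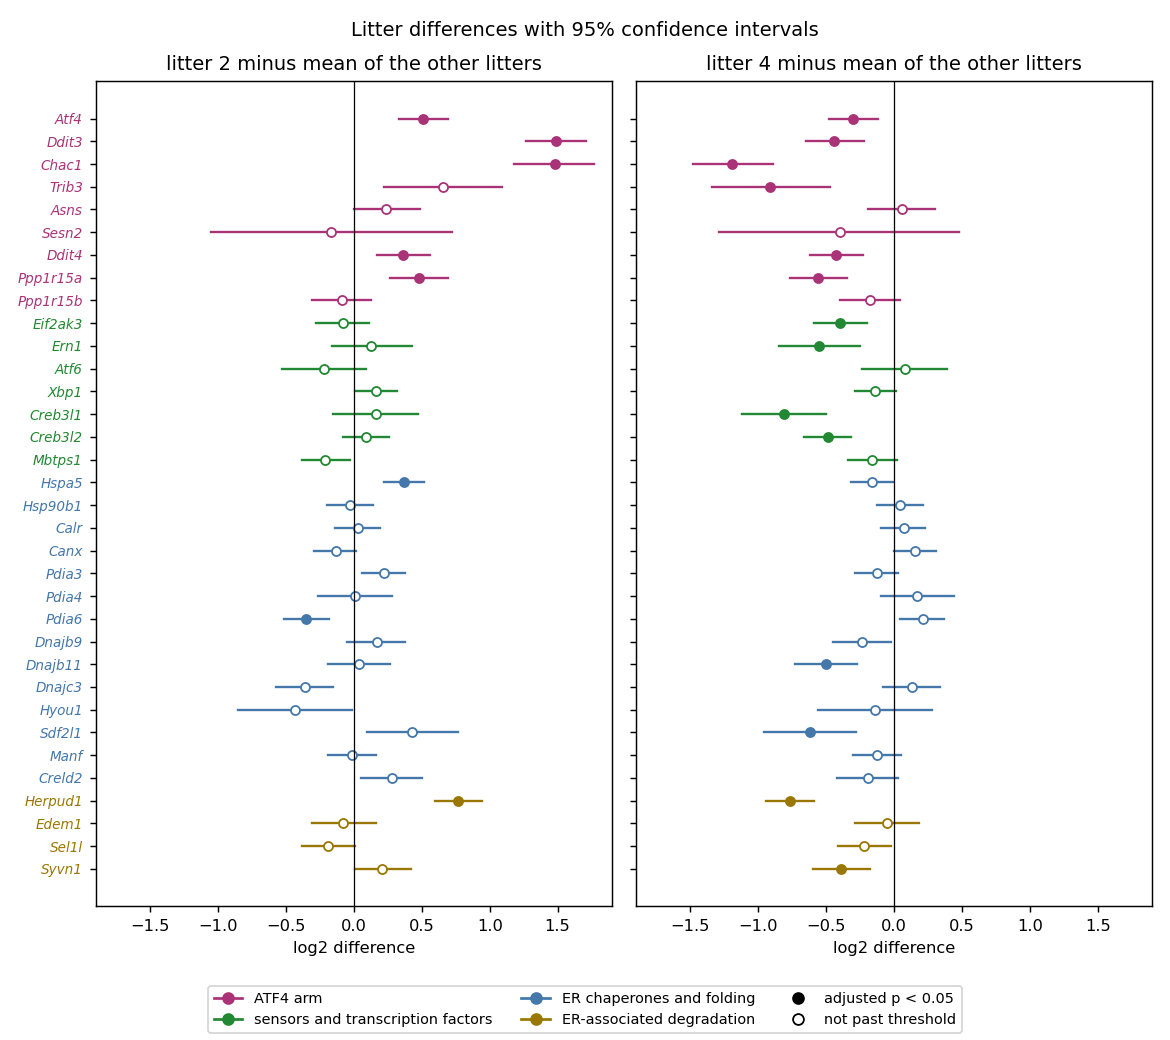
Points give the fitted log2 difference of litter 2 (left) and litter 4 (right) from the mean of the other 3 litters for each gene, with 95% confidence intervals, coloured by role and filled where the adjusted p was under 0.05. ATF4 arm genes reach 1.49 in litter 2 and -1.19 in litter 4, while chaperones stay between -0.43 and 0.43 in litter 2 and between -0.62 and 0.21 in litter 4.

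Other measures also differed between litters, not all of them with litters 2 and 4 at the ends. All 13 genes of a list of immediate early and dissociation-induced genes (Fos, Jun, Egr1, Il6 and Hspa1a among them) were called between litters, 12 of 13 higher in litter 2 and 11 of 13 lower in litter 4. Their summed signal was 197837 and 193983 in litter 2, 109710 and 114443 in litter 4, and 130466 to 157533 elsewhere. Skeletal muscle markers, of which 5 of 7 were called, summed to 28926 and 27568 in litter 2, to 42694 and 40907 in litter 4, to 29684 and 30425 in litter 3 and to 40530 and 39250 in litter 1. Chondrocyte markers, of which 4 of 12 were called, summed to 372558 and 333222 in litter 2, 288634 and 296294 in litter 4 and 291854 to 322569 elsewhere. Neutrophil markers summed to 1740 and 1646 in litter 2, 5572 and 3570 in litter 4, 2485 and 2486 in litter 3 and 4538 and 2686 in litter 1. Of 3 tested, 2 were called, S100a9 (-0.99 in litter 2 and 0.98 in litter 4) and S100a8 (-1.09 and 0.78). No marker in these 4 lists was listed at 0. Of 3 tested markers of hypertrophic chondrocytes, 2 were called between litters, Col10a1 (0.41 in litter 2 and -0.40 in litter 4) and Ihh (-0.49 and -0.54). The summed signal of 4 plasma and B cell markers, cells that also express Xbp1 and chaperones strongly, was 196 to 360 over the 8 arrays. The part of these measures, and of the 5′ to 3′ ratios, in the stress gene differences was not tested. Whatever else differed between litters, such as handling or digestion, cannot be told apart from the litter.

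Between genotypes, no stress gene was called. By limma, 0 of 34 members passed an adjusted p of 0.05 (0% of all genes), 0 had an unadjusted p under 0.05 (0.91% of all genes), and the smallest adjusted p was 0.9999. With litter as a block, which compares the arrays inside each litter, 0 were called and 1, Chac1, had an unadjusted p under 0.05 (3.08% of all genes). Chac1 transgenic arrays were above controls in litters 1, 3 and 4 and below in litter 2, with a difference of 0.26 log2 (SE 0.42 without and 0.12 with the block, limma adjusted p = 0.9998 with it). The median interval reached 0.31 log2 to each side without the block and 0.18 with it. The 95% interval excluded a 2-fold difference for 33 of 34 genes, Chac1 being the exception, and for 34 of 34 with the block. These widths bound the differences and do not show that the genotypes are alike.

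In the model without litter, the 4 genes with the smallest genotype p were chaperones and a degradation gene. With litter as a block, the 4 were Chac1, Dnajb11, Atf4 and Pdia6. Edem1 was at 1183 ± 86.7 in controls and 1058 ± 74.8 in transgenics (SD, n = 4; -0.16 log2, SE 0.11) and was lower in the transgenic array of every litter. Pdia6, at 6636 ± 929 and 6115 ± 639 (-0.11, SE 0.12), was also lower in every litter. Canx, at 10168 ± 604 and 10800 ± 784 (0.09, SE 0.09), was higher in every litter, though the mean over its probe sets gave -0.06. Dnajb11 was at 1183 ± 191 and 1052 ± 208 (-0.17, SE 0.16). Besides Canx, Creb3l2 and Syvn1 were higher in the transgenic array of every litter, so 3 genes were higher in all 4 litters (5.76% of all genes) and 2 were lower (4.93%). Of the 34 members, none had genotypes that did not overlap, against 0.992% of all genes.

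By role, the fitted difference of transgenic minus control was 0.00 to 0.26 log2 in the 9 ATF4 arm genes, with a median of 0.08. The medians were 0.03 for sensors and transcription factors, 0.01 for the chaperones, 0.00 for degradation genes, 0.03 for all 34 and 0.00 for all genes tested. Of the 34 values, 23 were above 0, against 50.7% of all genes. Atf4 differed by 0.13 (95% interval -0.21 to 0.46), Ddit3 by 0.08 (-0.75 to 0.91) and Hspa5 by -0.01 (-0.26 to 0.25). For Ddit3, inside litters, the transgenic array was above the control in litters 1 and 3 and below it in litters 2 and 4.

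**Figure D4:**
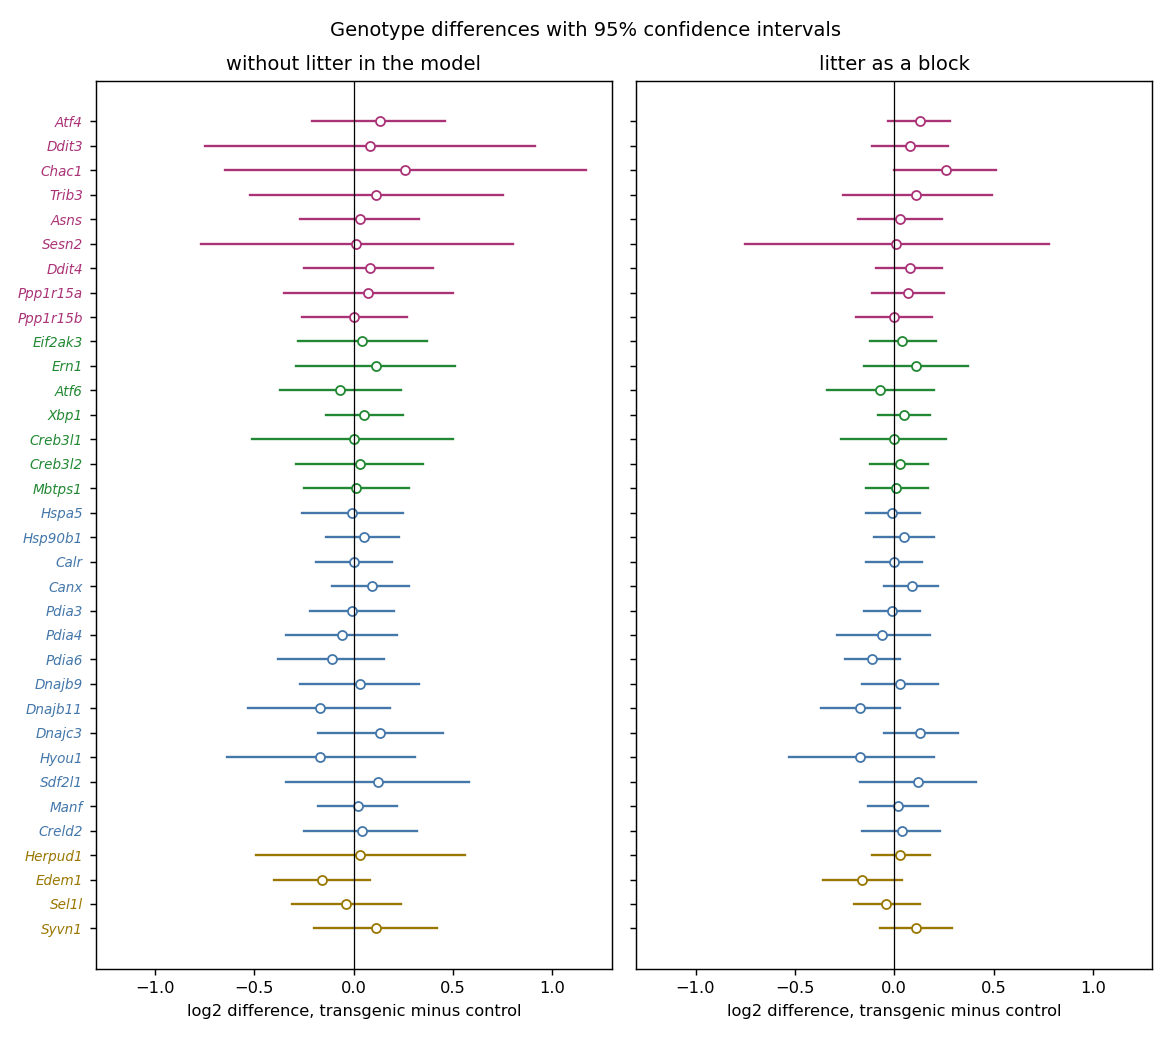
Points give the fitted log2 difference of transgenic minus control for each gene with 95% confidence intervals, without litter in the model (left) and with litter as a block (right), all open because none was called. Intervals of Ddit3, Chac1 and Herpud1, which had the smallest F-test p between litters among the 34, shrink most with the block.

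Wider gene lists of the same pathways were set beside the 34 genes. Their counts called between litters are read against 9.91% of all genes, and those higher in litter 2 or lower in litter 4 against 3.09% and 5.87%. None of their 121 tested genes was called between genotypes by limma at an adjusted p under 0.05 (2 had an unadjusted p under 0.05, and 5 with litter as a block). Of 17 tested genes of amino acid synthesis and transport, which ATF4 supplies, 5 were called between litters, with 2 higher in litter 2 and 6 lower in litter 4. Slc3a2, a chain of amino acid exchangers, was at 0.52 log2 in litter 2 (adjusted p = 0.00521) and -0.48 in litter 4 (adjusted p = 0.00682), and Slc1a4 at -0.77 in litter 4 (adjusted p = 0.00198). Of 19 cytosolic aminoacyl-tRNA synthetases, 4 were called between litters, with 1 higher in litter 2, and 4 lower and 2 higher in litter 4. Aars (-0.83), Cars (-0.65), Iars (-0.40) and Mars1 (-0.38) fell in litter 4, while Rars (0.45, adjusted p = 0.00879) and Farsb (0.32, adjusted p = 0.0458) rose there.

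Of 13 other genes linked to ATF4 and CHOP, 3 were called between litters, and 5 were higher in litter 2 and 4 lower in litter 4. Atf3, a stress-induced repressor that is also in the immediate early list, had the smallest p of these (1.20 in litter 2, adjusted p = 2.7e-05; -0.84 in litter 4). Cebpb, a dimer partner of CHOP and ATF4, was at 0.69 (adjusted p = 0.00339) and -0.63 (adjusted p = 0.00502). The list medians in litter 2 and litter 4 were 0.17 and -0.27 for amino acid genes, 0.08 and -0.08 for the synthetases and 0.24 and -0.30 for the ATF4 and CHOP linked genes.

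Genes of eIF2 and its kinases other than Eif2ak3 (PERK), which act above ATF4, had 0 of 10 called between litters by limma. Of these, 0 had an unadjusted p under 0.05. Eif2ak3, placed above among the sensors, was called between litters (limma F-test adjusted p = 0.027). It was lower in litter 4 (-0.40, limma adjusted p = 0.0186). Among 19 other ER folding and redox genes, Dnajc10 and Fkbp11 were called between litters, lower in litter 2 (-0.34 and -0.35) and higher in litter 4 (0.37 and 0.41), the reverse of Hspa5 and like Pdia6 in sign. Fkbp14 missed the F-test (adjusted p = 0.0572) but was called by limma higher in litter 4 (0.33, adjusted p = 0.0383). In this list, 3 of 19 were thus higher in litter 4 (4.12% of all genes) and 2 lower in litter 2 (3%). None of 16 other degradation genes was called by limma's F-test, and 5 had an unadjusted p under 0.05. Against the other litters, limma called 1 of the 16, Edem3, lower in litter 2 (-0.34, adjusted p = 0.0477). Of 23 genes of translocation and ER to Golgi transport, only Ssr2 was called by the F-test, a share below that of all genes. Ssr2 was at -0.39 in litter 2 and 0.30 in litter 4. Against the other litters, 1 of the 23 was lower in litter 2 (3% of all genes). In litter 4, 2 were higher, Ssr2 and Sar1b (4.12% of all genes), and 2 lower, Sec31a and Sec24d (5.87%). The 2 of 19 folding and redox genes called by the F-test were close to the share of all genes. Of 4 others of the OASIS family and site proteases, Mbtps2, the site-2 protease, was called by the F-test (-0.43 in litter 2, 0.39 in litter 4). Creb3 missed that test (adjusted p = 0.0592) but was called by limma against the other litters, at -0.32 in litter 2 (adjusted p = 0.0447) and 0.29 in litter 4 (adjusted p = 0.0476). Both had the opposite sign to Creb3l1 and Creb3l2 in litter 4, and Atf6b and Creb3l3 were not called.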

How the data were processed

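Total RNA was labelled with biotin by a one-cycle protocol and hybridised to 8 Affymetrix arrays, per the labels' protocols. The authors deposited linear intensity values made with MAS5 (version not stated), per the submitters' processing notes. The mean trimmed by 2% at each end was 500 on every array. Of 45101 probe sets, 34945 named 1 gene, 932 several and 9160 none (annotation of 2016), and 64 controls were left out. An offset of 22.1, the 20th percentile of signals, was added before log2, so fold changes of dim genes are understated. The filter, a mean signal of at least 110, left 22519 probe sets. limma 3.58.1 in R 4.3.3 (lmFit, eBayes with an intensity trend) fitted genotype, then litter with genotype, and was tested on simulated data. Depth has no meaning for arrays, and 4 arrays per genotype limit the precision.

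Replicate numbers pair the arrays, since per the labels a number stands for a litter. Deviations from the group means correlated by 0.0251, 0.434, 0.376 and 0.379 within litters 1 to 4, and by at most 0.063 between litters. The control array of litter 1 correlated more with a transgenic array of another litter (0.063) than with that of its own (0.0251). The correlations therefore do not bear out the pairing of litter 1. Such deviations cancel out within a genotype, which in itself lowers the values between litters. Whether samples of a group were independent beyond the litter is not stated. Genotype p-values without the block are set against the spread between these samples of a group. Litter p-values, and genotype p-values with the block, are set against the spread that litter and genotype leave unexplained. In each case limma's variance prior enters that spread. Detailed differences were computed for the genes called in a comparison and the 4 genes with the smallest genotype p. The members and all lists were chosen with earlier results of these data known.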

Additional observations from a re-analysis of the deposited data

Results flagged for a closer look

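In 4 of 68 gene and genotype groups of 4 arrays, 1 array stood apart by Dixon's test, its gap to the nearest array, as a share of the range, being over the 95% critical value. Chance alone marks about 1 in 20 groups. All 4 were transgenic arrays. Ddit3 in litter 2 was at 5346, with the nearest array at 2319 (a gap of 0.865 of the range). Hspa5 in litter 2 was at 31207, nearest 25047 (0.915). Ppp1r15b in litter 3 was at 1322, nearest 1055 (0.873). Creb3l2 in litter 4 was at 2849, nearest 3956 (0.877). In each case the control array of the same litter was also the most extreme of the controls, at 5643, 32721, 1223 and 2814.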

How the results depend on the processing

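No member was called between genotypes in any of 21 alternatives, the replicate block included (0 called). The other results were recomputed with changed offsets, filters, normalization, variance prior, probe set rule and omitted arrays or litters. Of 13 members called between litters, 6 were called with no filter on mean signal and 0 with no intensity trend, and 4 to 16 (12 without the control array of litter 1) with arrays or litters left out. The 8 calls of litter 2 became 3 with no intensity trend and 3 to 10 in the omissions (9 without that array). The 1 call of litter 3 became 2 with the offset doubled, 2 with the stricter filter, 2 with median centring, 3 with the mean over probe sets, 0 with no intensity trend, and 0 to 4 in the omissions. The 14 calls of litter 4 became 0 with no intensity trend and 5 to 13 in the omissions (11 without that array, 7 without litter 2). Of 697 recomputed litter values of called members, 511 kept direction and call, 184 lost the call and 2 changed sign. Of 84 genotype values, none of them called, 83 kept their sign and 1 did not. The 3 that changed sign were Canx between genotypes (-0.06) and Pdia6 in litter 2 (0.17) with the mean over probe sets, and Ddit3 in litter 4 (0.07) without litter 2. The cause of these shifts was not tested, beyond that omissions leave fewer arrays. Signals near the background limit Sesn2 and dim probe sets.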
